A study of Caenorhabditis elegans with 2 samples.

Results

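The 10 genes described here set the sex of Caenorhabditis elegans and build its dosage compensation complex: xol-1, sdc-1, sdc-2, sdc-3, dpy-21, dpy-26, dpy-27, dpy-28, dpy-30 and mix-1. They were taken by name from 19973 protein-coding genes of the nuclear chromosomes. For each gene, all summits of deposited ChIP-seq regions from 5 kb upstream of its annotated 5′ end to its 3′ end were collected. This stretch is called the gene window. Hermaphrodite L1 larvae of strain OP481, genotype unc-119(tm4063) III; wgIs481, were used whole, 6 h after synchronization by starvation following bleaching. Every animal thus carried the unc-119 mutation and the transgene wgIs481, which supplies NHR-47, a nuclear hormone receptor, with a GFP-FLAG tag at its C terminus. Chromatin was immunoprecipitated with an antibody to GFP, although 1 label names the antibody by its target nhr-47. Animals without the tag were not analysed here. There was 1 group with 2 biological replicates and no second condition, so no comparison between conditions was possible and no test was made.

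In this worm the number of X chromosomes decides sex. XOL-1 is the switch that is active in XO embryos and directs male development by holding down sdc-2. In XX animals SDC-2, together with SDC-3 and SDC-1, brings a condensin-like complex to both X chromosomes, where it lowers transcription. The core of that complex includes DPY-27, MIX-1, DPY-26 and DPY-28, and DPY-30 and DPY-21 act with it. The complex is recruited at sites on X that carry a GC-rich motif and spreads from them.

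A thresholded peak here is a region that passed the authors' optimal irreproducible discovery rate (IDR) rule. A peak with more than 1 summit is listed once for each, and medians and totals over thresholded peaks count every listing. Signal is the peak caller's own value for a region, and rank 1 is the highest signal of a list. The pooled list and each replicate's list held 30000 regions each, most of them below the threshold. A relative signal is the signal of the matching replicate region divided by that replicate's median. This median is over the 5312 thresholded summits found in both replicates (66.8 in replicate 1 and 92.2 in replicate 2). The relative signal is given as the mean ± SD of the 2 replicates. Whole animals were used, so binding in more cells and more binding per cell cannot be told apart. No read counts came with the lists, and the depth of each library is unknown. Coordinates are on ce11 (WBcel235), counted from 1.

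Of the 10 genes, 8 held at least 1 thresholded summit in the gene window, and sdc-3 and dpy-26 held none. Among all protein-coding genes 32.9% held one, and 43.4% of the 6430 genes with windows of at least 8 kb did, a length that 9 of the 10 genes reached (7 of these 9 held a summit). All 3 members on X held a summit, against 35.2% of protein-coding genes there. In the promoter window, which reaches 500 bp up from the 5′ end and 200 bp into the gene, 5 of the 10 genes had a summit (sdc-1, sdc-2, dpy-28, dpy-30 and mix-1), against 12.8% of all genes. On X, 2 of the 3 members had one, against 12.2% of genes there. The windows held 14 thresholded summits in all, or 0.102 per kb, against 0.0583 per kb over all gene windows. At least 2 summits lay at xol-1, sdc-1, dpy-28 and mix-1, against 10.1% of all genes. The 2 summits at xol-1 shared a peak. That share is not matched for window length, whose median was 12916 bp for the 10 genes and 7027 bp for all genes.

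A summit in a gene window can lie nearer to another gene, and which gene each summit serves was not tested. The nearest 5′ end of a protein-coding gene was that of the listed gene for 8 of the 14 summits, at 7 genes, and that of a neighbor for the other 6. Windows of further genes also held 10 of the 14. The strongest summit of all lay at the neighbor tasp-1, upstream of dpy-28, and the next strongest lay far upstream of xol-1. Upstream of their gene's 5′ end were 9 summits, and 5 lay downstream of it.

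**Figure D1:**
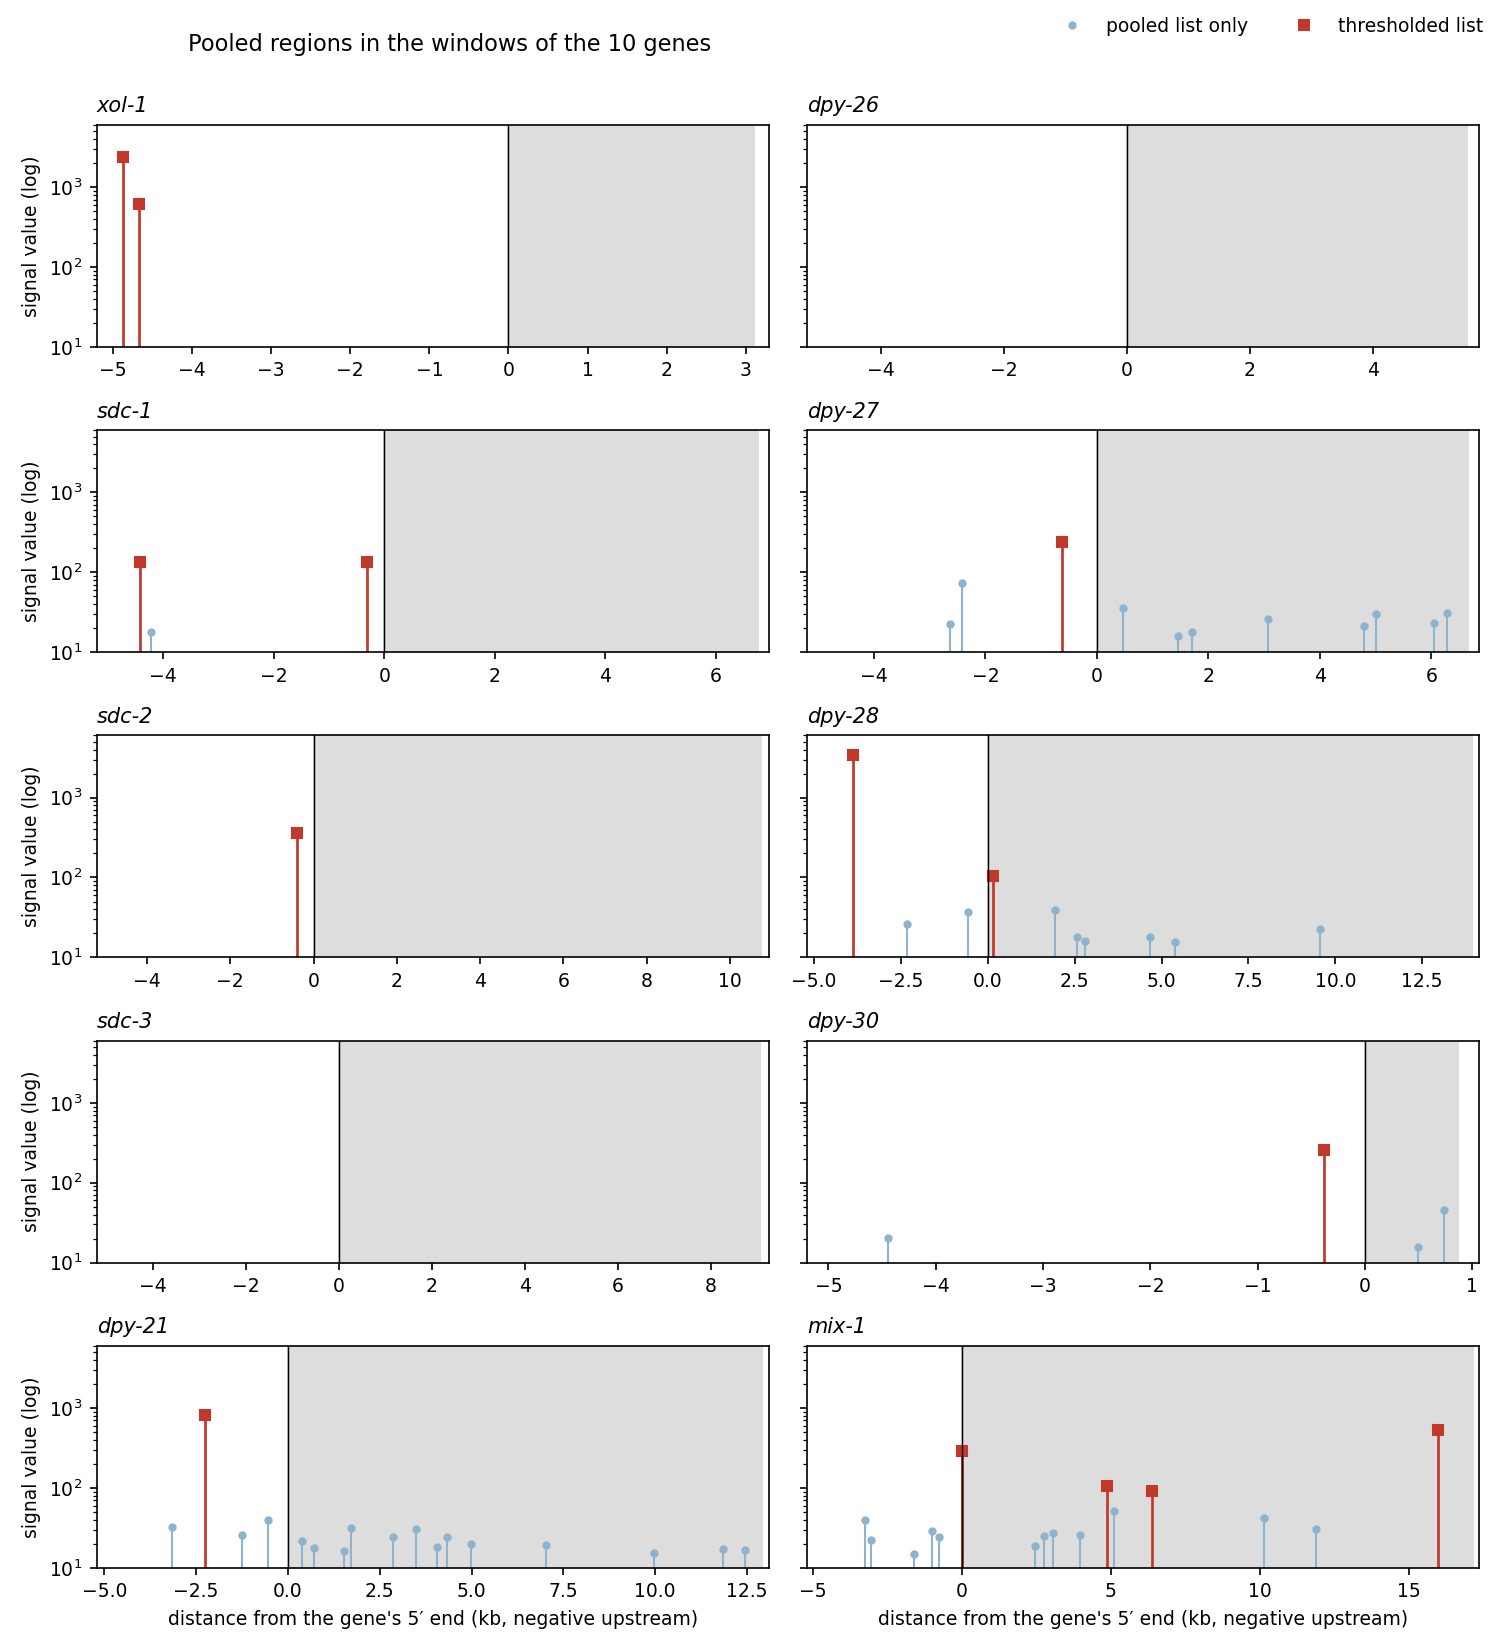
Signal of each pooled region (log axis) against its summit's distance from the 5′ end of the gene (kb, negative upstream), with the gene body in grey, red squares for thresholded summits and blue circles for regions of the pooled list only. The windows of sdc-3 and dpy-26 are empty, and the highest squares are those at dpy-28 (3383) and xol-1 (2384).

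The sequences under the summits that the results turn on are shown as the plus strand of ce11, the summit base with 50 bases on each side. They are the strongest site of each of the 8 genes and the second xol-1 site, which shares a peak with the first. Capitals mark matches, on either strand, to the motif GCGCAG, the motif GCAGGG, the repeat GAGAGA or the motif GACGCA, and a sequence without capitals held none of the 7 motifs searched.
xol-1 upstream site, X:8036388-8036488: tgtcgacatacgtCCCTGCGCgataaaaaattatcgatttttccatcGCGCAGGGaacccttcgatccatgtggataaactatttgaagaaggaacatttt
xol-1 second site, X:8036595-8036695: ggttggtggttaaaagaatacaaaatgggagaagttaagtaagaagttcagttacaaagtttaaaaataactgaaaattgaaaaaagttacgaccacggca
sdc-2 promoter, X:11522254-11522354: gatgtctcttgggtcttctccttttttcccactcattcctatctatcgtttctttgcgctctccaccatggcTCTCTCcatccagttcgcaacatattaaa
sdc-1 promoter, X:16275405-16275505: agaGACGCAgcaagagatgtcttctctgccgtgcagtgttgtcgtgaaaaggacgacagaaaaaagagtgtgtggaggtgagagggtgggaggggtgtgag
dpy-27 upstream site, III:3820262-3820362: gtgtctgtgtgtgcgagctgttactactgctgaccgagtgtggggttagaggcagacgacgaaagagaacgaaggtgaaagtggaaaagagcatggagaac
tasp-1 promoter, upstream of dpy-28, III:10759201-10759301: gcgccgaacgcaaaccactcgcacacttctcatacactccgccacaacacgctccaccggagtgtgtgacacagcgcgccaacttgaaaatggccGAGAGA
mix-1 intron, II:10840196-10840296: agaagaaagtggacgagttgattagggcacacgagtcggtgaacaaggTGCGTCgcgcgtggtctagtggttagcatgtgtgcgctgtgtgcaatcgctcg
dpy-21 upstream site, V:17951404-17951504: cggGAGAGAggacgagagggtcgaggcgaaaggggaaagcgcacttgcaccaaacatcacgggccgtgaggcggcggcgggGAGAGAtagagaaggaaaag
dpy-30 promoter, V:12191087-12191187: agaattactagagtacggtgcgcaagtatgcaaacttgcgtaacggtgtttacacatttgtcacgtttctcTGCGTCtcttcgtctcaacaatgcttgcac

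The switch gene xol-1 (WBGene00006962, X from 8041313 to 8044409, plus strand) had 2 thresholded summits inside 1 peak of 1017 bp, from 8035966 to 8036982, in intergenic sequence. The stronger summit lay 4875 bp upstream of the gene. Its signal was 2384 in the thresholded list (rank 21), 951 in replicate 1 (rank 26) and 1384 in replicate 2 (rank 19). Both replicates therefore placed it among their strongest regions, with a relative signal of 14.6 ± 0.547 (n = 2). The other summit lay 207 bp closer to the gene, at 4668 bp upstream, with a signal of 612 (rank 462), 284 in replicate 1 (rank 410) and 404 in replicate 2 (rank 366). Its relative signal was 4.32 ± 0.0869 (n = 2), and the spread between replicates was far smaller than the difference between the summits. The second summit was 40 bp from a tRNA gene, WBGene00022939 (X from 8036685 to 8036757, minus strand), and the stronger one 247 bp from it. No protein-coding 5′ end was nearer to either summit than that of xol-1, and no other gene window held the peak. The promoter and body of xol-1 held no region in any of the lists. The stronger summit was just inside the 5 kb limit, and the next thresholded summit upstream, outside it, lay 12041 bp from the gene near C34D10.1 (signal 253, rank 1585).

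The stronger xol-1 site held the run GCGCAGGG on both strands, joined from overlapping matches to GCGCAG and to the motif GCAGGG, which are parts of the motif known from recruitment sites of the dosage compensation complex. The copy on the plus strand began 3 bp before the summit by coordinate and the copy on the minus strand 37 bp before it, with 26 bases between them. The joined run was looked for after the values of the shorter motifs had been seen. Of 1100 thresholded summits on X, 17 (1.55%) held the run in such a stretch, and 3 of 4257 autosomal summits (0.0705%) did. The xol-1 site was 1 of only 2 summits with more than 1 copy. The other was at X from 6296061 to 6296960, nearest cest-16, with a signal of 2845 (rank 11). Among the 17 summits on X with the run, the xol-1 summit was seventh by signal. Their median signal was 1099, against 139 for summits on X without it. The run was joined at the xol-1 site, a strong summit that is itself among the 17. These signals and the shares on X and autosomes are therefore no independent check. The genome held 81 copies on X (4.57 per Mb) and 233 on autosomes (2.82 per Mb). Of the X copies, 21 (25.9%) lay within 50 bp of a thresholded summit, and of the autosomal copies 4 (1.72%) did. No copy lay in the windows of the other 9 genes. A match describes the letters and does not show which protein is bound there.

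The SDC genes differed from each other. The gene sdc-2 (WBGene00004746, X from 11522707 to 11533450, plus strand) encodes the factor that directs the complex to X and starts its assembly. It had 1 thresholded peak, from 11522114 to 11522432, with its summit 403 bp upstream of the 5′ end in intergenic sequence. The signal was 363 (rank 995), with 149 in replicate 1 (rank 1043) and 220 in replicate 2 (rank 941), a relative signal of 2.31 ± 0.108 (n = 2). Among the 6574 genes with a summit in their window, 69.8% had a lower strongest signal. The long body of sdc-2 held no region in any list. The only weaker region was 1 in replicate 2, with a signal of 15.2 (rank 18263), 3462 bp upstream and 179 bp from the 5′ end of hpo-34.

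The gene sdc-1 (WBGene00004745, X from 16275763 to 16282534, plus strand) encodes a zinc finger protein and had 2 thresholded summits of nearly equal, low signal. The promoter summit, 308 bp upstream in the peak from 16275245 to 16275664, had a signal of 135 (rank 3070). Replicate 1 gave 59.7 (rank 3109) and replicate 2 gave 74.5 (rank 3334), a relative signal of 0.851 ± 0.0614 (n = 2). The second summit lay 4429 bp upstream, in the peak from 16271124 to 16271543, inside a tRNA gene (WBGene00014388, X from 16271296 to 16271367, minus strand) and 1265 bp from the 5′ end of ifa-3. Its signal was 133 (rank 3110), with 57.2 in replicate 1 (rank 3243) and 71.6 in replicate 2 (rank 3464), a relative signal of 0.817 ± 0.0562 (n = 2). The 2 summits differed by less than the spread between replicates, although the promoter summit was slightly higher in each replicate. Both lay below the median thresholded peak. Weaker regions numbered 1 in each of the pooled, replicate 1 and replicate 2 lists, with signals of 18.1 (rank 24598), 9.44 (rank 28067) and 13.5 (rank 20508). They lay at different places, in that order 4224 bp upstream, 6309 bp downstream and 3671 bp upstream of the 5′ end.

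The gene sdc-3 (WBGene00004747, V from 15039148 to 15048207, minus strand), whose product acts with SDC-2 in loading the complex, had no summit in any of the lists, relaxed ones included. Of all protein-coding genes, 32.9% likewise held none, and of those with windows of at least 8 kb 20.6% held none. The nearest thresholded summits lay 11578 bp upstream, with the nearest 5′ end that of C25D7.15 (rank 4033), and 10046 bp past the 3′ end, near F14H8.8 (signal 171, rank 2457).

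Among the 4 listed genes of the condensin core, mix-1 had the most summits and dpy-26 none. The gene mix-1 (WBGene00003367, II from 10824246 to 10841424, plus strand) encodes an SMC protein that the complex shares with the mitotic condensins. It had 4 thresholded summits, against 1.01% of all genes with 4 or more, in a window of 22179 bp, the longest of the 10. The median window over all genes was 7027 bp, so that share is not matched for window length. The promoter summit lay 4 bp into the gene, in the 5′ UTR, in the peak from 10824134 to 10824353. Its signal was 293 (rank 1339), with 133 in replicate 1 (rank 1228) and 158 in replicate 2 (rank 1442), a relative signal of 1.85 ± 0.189 (n = 2). This summit also lay in the promoter window of R06F6.12, which is transcribed away from mix-1.

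The strongest mix-1 summit was 16000 bp downstream of the 5′ end, in an intron, in the peak from 10840104 to 10840418. Its signal was 529 (rank 566), with 218 in replicate 1 (rank 605) and 315 in replicate 2 (rank 548), a relative signal of 3.34 ± 0.106 (n = 2). It lay 71 bp before the snoRNA gene M106.6 (II from 10840317 to 10840391, plus strand), which is nested in mix-1. The nearest protein-coding 5′ end, 3381 bp away, was that of M106.8, on the opposite strand. The remaining summits of mix-1 were low. One, in the peak from 10828917 to 10829336, lay in the 5′ UTR of VM106R.1, a gene nested in a mix-1 intron on the opposite strand, 54 bp from its 5′ end (signal 106, rank 3889). It had 47.4 in replicate 1 (rank 3958) and 61.1 in replicate 2 (rank 4067), a relative signal of 0.686 ± 0.033 (n = 2). The last, intronic and 6390 bp downstream of the 5′ end, in the peak from 10830426 to 10830845, had a signal of 90.3 (rank 4558), with 49.2 in replicate 1 (rank 3796) and 42.1 in replicate 2 (rank 5953). Its relative signal was 0.597 ± 0.198 (n = 2), and in replicate 2 it ranked lower than the number of thresholded peaks.

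The gene dpy-28 (WBGene00001087, III from 10763131 to 10777076, plus strand) encodes a HEAT-repeat condensin subunit. The strongest summit in its window, 3880 bp upstream in the peak from 10758958 to 10759553, lay 56 bp upstream of the 5′ end of tasp-1 and in the promoter window of that gene alone. It had rank 3 in the thresholded list and in each replicate, with signals of 3383, 1391 and 1995, and a relative signal of 21.2 ± 0.568 (n = 2). Its neighbors in rank were the peak nearest egg-5 (signal 3402, relative signal 21.3 ± 0.538) and that nearest Y17G9B.5 (3211, 20.3 ± 0.00144). It differed from the first of these by less than the spread between replicates, although the egg-5 peak was slightly higher in each replicate. The genes tasp-1 and dpy-28 lie on the same strand with 109 bp between them, and which of them the upstream peak serves was not tested. At dpy-28 itself the summit lay 152 bp into the gene, in an intron, in the peak from 10763073 to 10763492. That summit had a signal of 106 (rank 3903), with 57.4 in replicate 1 (rank 3229) and 52.0 in replicate 2 (rank 4797). Its relative signal was 0.712 ± 0.209 (n = 2), so the spread between replicates was wide, and 16.8% of genes with a promoter summit had a lower one.

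The gene dpy-27 (WBGene00001086, III from 3813018 to 3819679, minus strand) encodes the SMC protein that sets the dosage compensation condensin apart from the mitotic ones. Its thresholded summit lay 633 bp upstream, outside the promoter window, in the peak from 3820251 to 3820464. The signal was 240 (rank 1692), with 102 in replicate 1 (rank 1703) and 135 in replicate 2 (rank 1739), a relative signal of 1.50 ± 0.0443 (n = 2). The summit was 39 bp from the noncoding RNA gene R13G10.5 (III from 3820206 to 3820273), which lies on the same strand as dpy-27. A pooled region near the 5′ end of amx-1, 2419 bp upstream of dpy-27, was not in the thresholded list. Its signal was 73.7 in the pooled list (rank 5589), 22.6 in replicate 1 (rank 9393) and 46.8 in replicate 2 (rank 5342). The lowest signal in the thresholded list was 77.0.

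The gene dpy-26 (WBGene00001085, IV from 12445801 to 12451335, minus strand) encodes the kleisin that closes the condensin ring. It had no thresholded summit and no region of the pooled list. No pooled region was found at 44% of all genes and at 30.7% of those with windows of at least 8 kb. Replicate 1 alone listed 1 region, 3599 bp downstream of the 5′ end in an intron, with a signal of 12.7 (rank 19903). The nearest thresholded summits were 107875 bp upstream and 27786 bp past the 3′ end.

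The last 2 genes encode proteins that work with the condensin core. The gene dpy-21 (WBGene00001080, V from 17936282 to 17949193, minus strand) encodes a histone H4 demethylase. Its thresholded summit lay 2261 bp upstream, in intergenic sequence in the peak from 17951216 to 17951672. The signal was 822 (rank 264), with 386 in replicate 1 (rank 215) and 442 in replicate 2 (rank 301), a relative signal of 5.29 ± 0.698 (n = 2). The nearest 5′ end was that of Y59A8B.24, a gene on the opposite strand 495 bp away, whose promoter window held the summit. The gene dpy-30 (WBGene00001088, V from 12191519 to 12192385, plus strand) encodes a small protein found in the dosage compensation complex and in COMPASS, the histone H3 methyltransferase complex. Its summit lay 382 bp upstream, in the peak from 12191040 to 12191249. The signal was 256 (rank 1556), with 102 in replicate 1 (rank 1697) and 153 in replicate 2 (rank 1503), a relative signal of 1.60 ± 0.0904 (n = 2).

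**Figure D2:**
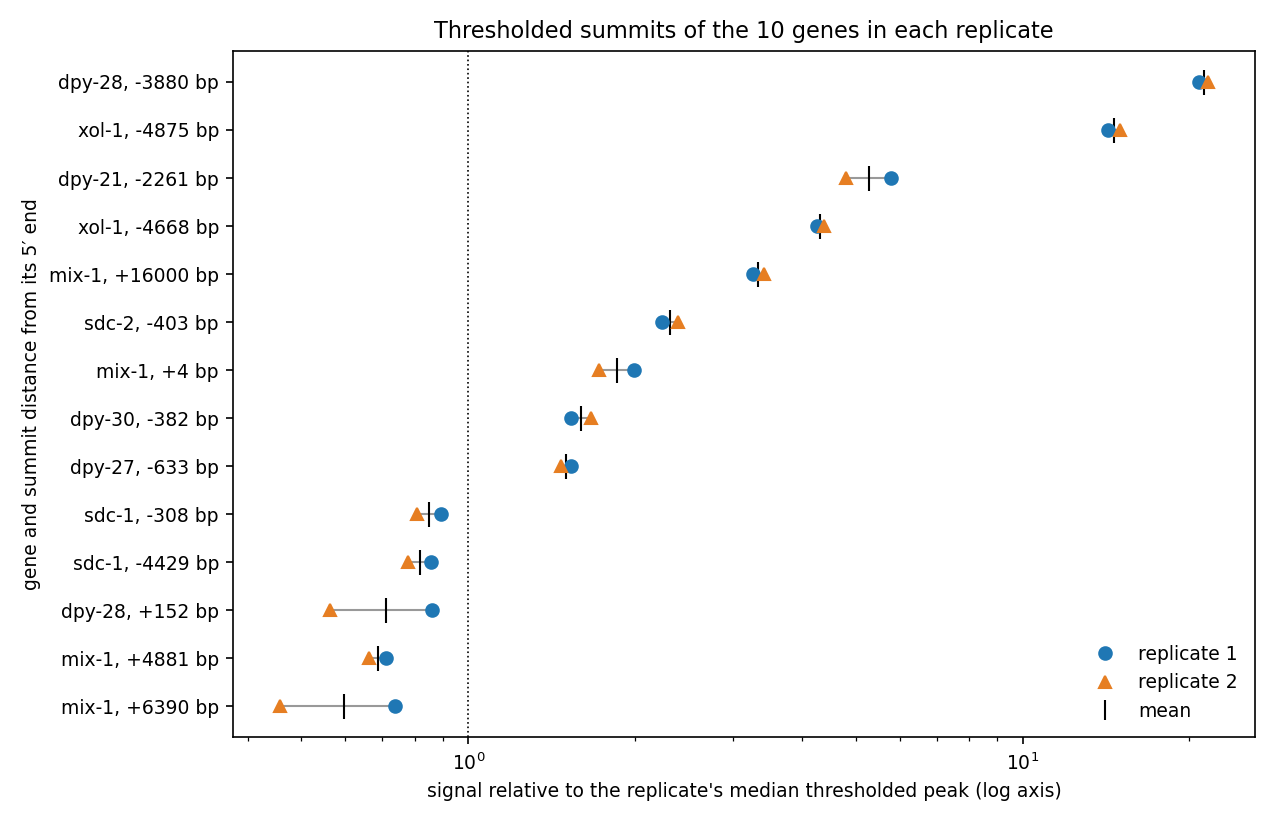
Relative signal (log axis, 1 is the replicate's median thresholded peak) of each of the 14 thresholded summits in replicate 1 (circles) and replicate 2 (triangles), with the mean as a tick and the gene and distance at the left. The summits at dpy-28 (3880 bp upstream) and xol-1 stand highest, and the replicates lie farthest apart at the low summits of mix-1 (6390 bp downstream) and dpy-28 (152 bp downstream).

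The replicates placed these summits at nearly the same positions and levels. All had passed the IDR rule, which selects for reproducible signal, so this likeness is no independent check. The summits of the 2 replicates were 17.0 bp apart in the median and 46 bp at most, and the median over all thresholded peaks found in both was 18.0 bp. The log2 ratio of relative signals, replicate 2 over replicate 1, had a median size of 0.11 over the 14 summits and of 0.24 over all thresholded peaks. The largest difference was -0.69, at the mix-1 summit 6390 bp downstream. The 14 summits were also stronger, with a median signal of 274 against 156 over all thresholded peaks. The part of signal in the smaller median size was not tested. Replicate 2 was higher at 6 summits and replicate 1 at 8. Among as many regions of highest signal in each replicate as there were thresholded peaks, 8 of the 10 genes had a summit in the gene window in both (33.5% of all genes in replicate 1 and 32.9% in replicate 2). In the promoter window 5 genes had one in each replicate (13.1% and 12.9% of all genes).

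By strongest signal in the window, the order was dpy-28, xol-1, dpy-21, mix-1, sdc-2, dpy-30, dpy-27 and sdc-1. The summits of dpy-30 and dpy-27 differed by about the spread between replicates (1.60 ± 0.0904 and 1.50 ± 0.0443), with dpy-30 higher in each replicate. The other neighbors in the order differed by more. The median strongest signal of the 6574 genes with a summit was 220, and 7 of the 8 genes were above it. A lower strongest signal was found in 99.9% of those genes for dpy-28, 99.3% for xol-1, 91.6% for dpy-21, 82.2% for mix-1, 56.3% for dpy-30, 53.5% for dpy-27 and 28.0% for sdc-1. For dpy-28, dpy-21 and mix-1 the 5′ end nearest that summit was a neighbor's (tasp-1, Y59A8B.24 and M106.8). Compared by promoter summits alone, sdc-2 was highest (363), followed by mix-1 (293), dpy-30 (256), sdc-1 (135) and dpy-28 (106), and the median over all genes with one was 227.

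**Figure D3:**
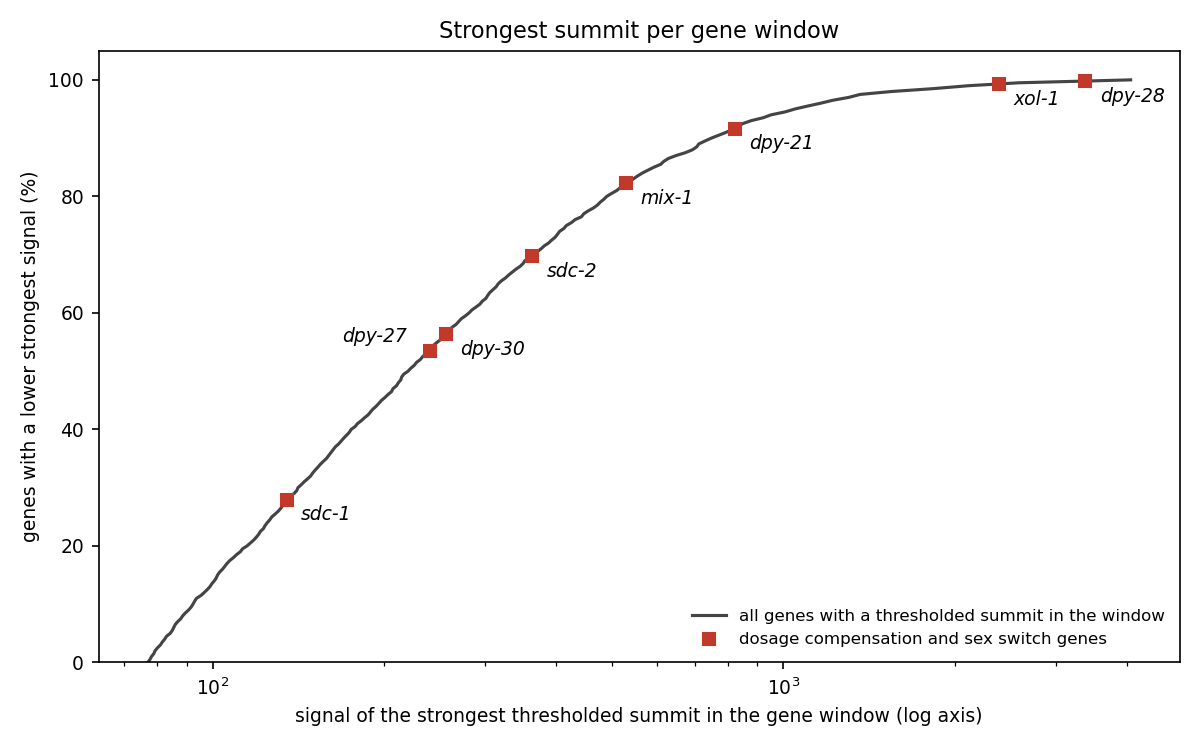
Share of genes with a lower strongest signal (%) against the signal of the strongest thresholded summit in the gene window (log axis), as a line for all 6574 genes with such a summit and as squares for the 8 listed genes. The squares run from sdc-1 (135) to dpy-28 (3383), with 7 of 8 above the median of 220.

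Weaker regions were many at some genes and missing at others. The windows held 64 regions of the pooled list, 54 of replicate 1 and 56 of replicate 2, and 50 of the pooled regions were not thresholded. A region of both replicates overlapped 33 of these 50, a region of 1 replicate overlapped 16, and 1 had none. Neighboring pooled regions could share an overlapping replicate region, also that of a thresholded peak, so the 33 were not all found separately. The pooled density was 0.468 per kb, against 0.288 over all gene windows. At dpy-21 there were 17 pooled regions, a number that 0.766% of all genes and 19.3% of genes with windows at least as long reached. Besides the peak, these had signals from 15.3 to 40.2 (ranks 10625 to 28195), and 13 of the 16 lay in the gene body. Of the 16, 5 were overlapped by a region of both replicates. In replicate 1 the other dpy-21 regions ranked from 7384 to 23108, and in replicate 2 from 11971 to 29633.

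The other condensin genes with peaks had similar low regions. At dpy-27, 10 pooled regions ran from 16.1 to 73.7 (ranks 5589 to 27093). All 10 were overlapped by a region of both replicates, in part by shared regions. Beside the peak, its replicate 1 list held 7 regions from 10.2 to 23.5 (ranks 8888 to 25765). Its replicate 2 list held 8 from 8.72 to 46.8 (ranks 5342 to 29576). Of these, 1 in replicate 1 and 0 in replicate 2 overlapped no pooled region. The 8 at dpy-28 ran from 15.8 to 39.1 (ranks 10970 to 27482), with 7 in replicate 1 from 9.08 to 19.9 (ranks 11090 to 29129) and 7 in replicate 2 from 9.09 to 32.0 (ranks 7960 to 28700). At mix-1, 12 ran from 14.8 to 51.7 (ranks 8077 to 28783). Replicate 2 held 13 there, from 8.81 to 28.5 (ranks 9089 to 29346), and replicate 1 held 11, from 9.35 to 36.3 (ranks 5301 to 28318). The highest of the latter, 4112 bp upstream and 156 bp from the 5′ end of R06F6.8, was not listed in replicate 2 or the pooled list. At dpy-30 there were 3, from 15.7 to 45.4 (ranks 9324 to 27612), the highest 13 bp from the 5′ end of rnp-1, which overlaps dpy-30. Replicate 1 held 2 at dpy-30, from 9.42 to 22.5 (ranks 9463 to 28110), and replicate 2 held 2, from 14.3 to 37.8 (ranks 6652 to 19313).

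**Figure D4:**
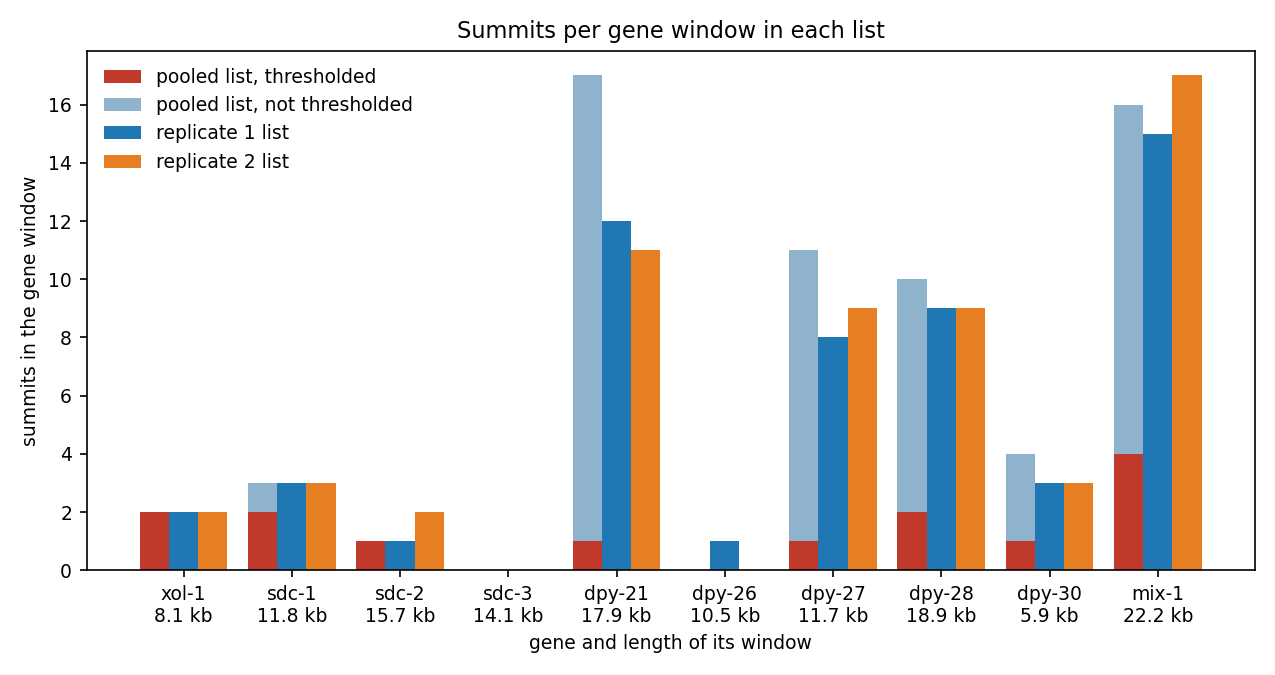
Number of summits in the window of each gene in the pooled list (thresholded in red, others in light blue, stacked), the replicate 1 list and the replicate 2 list, with the window length under each name. The pooled counts run from 0 at sdc-3 and dpy-26 to 17 at dpy-21.

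Short noncoding genes and base composition were examined at the same summits. Of the 14, 4 lay within 200 bp of a tRNA, snoRNA or other short noncoding RNA gene, against 18.1% of all thresholded summits. They were the second xol-1 summit, the distal sdc-1 summit, the dpy-27 summit and the mix-1 summit at M106.6. Of the 14, 2 lay within 200 bp of a tRNA gene, against 4.65% of all. The part of these genes in the signal was not tested. The GC content of the printed stretches and those of the other summits had a median of 47.5%, and 45.5% over all thresholded summits. It ran from 31.7% at the second xol-1 summit and the VM106R.1 summit to 62.4% at dpy-21.

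The fixed motifs were mostly sparse. The nuclear receptor core element AGGTCA was found at 0 of the 14 summits and at 2.67% of all. The E-box CACGTG was at 0 (5.39% of all), and the GATA motif GATAAG at 0 (3.96%). GAGAGA was at 3 (25.1% of all), those of sdc-2, dpy-21 and tasp-1. GACGCA was at 3 (14.6% of all), those of sdc-1, dpy-30 and mix-1 at M106.6. GCGCAG was at 1 summit and likewise the motif GCAGGG, in both cases the stronger xol-1 summit, against 5.64% and 2.99% of all.

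Other genes of the same pathways were taken from 5 lists of 28 genes, all found in the annotation. A thresholded summit lay in the gene window of 17 of the 28 and in the promoter window of 8, beside the 32.9% and 12.8% of all genes. The lists were not matched for window length, and 43.4% of genes with windows of at least 8 kb held a summit in the gene window. Of 5 further condensin subunits, 3 had one in the gene window and 2 in the promoter, hcp-6 with a relative signal of 4.24 ± 0.644 (n = 2) and smc-4 with 1.62 ± 0.239 (n = 2). The smc-4 summit was nearest the 5′ end of F35G12.7, and the hcp-6 summit lay also in the promoter window of let-630. The X and autosomal signal elements, which count the chromosomes upstream of xol-1, had 3 of 5 in the gene window and 1 in the promoter, the X signal gene ceh-39 (1.61 ± 0.466, n = 2).

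Of 11 genes of sex determination, 6 had a summit in the gene window and 2 in the promoter. These were fem-2, a phosphatase gene of the male-promoting branch (1.37 ± 0.106, n = 2), and fem-1 (0.621 ± 0.00158, n = 2). The COMPASS partners of DPY-30 had 3 of 5 in the gene window and 2 in the promoter, the methyltransferase gene set-2 (2.25 ± 0.370, n = 2) and wdr-5.1 (0.594 ± 0.0213, n = 2). Both histone H4 methyltransferase genes, set-1 and set-4, had one in the gene window. The promoter of set-4 carried the strongest promoter summit of the 5 lists (5.81 ± 0.0345, n = 2, rank 209), and that of set-1 carried none.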

How the data were processed

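ChIP-seq regions of 2 biological replicates of 1 group were analysed. The deposited lists are in the narrowPeak layout. Per the submitters' file index, regions were called against a control on each replicate and on both pooled, and the pooled regions were thresholded by the optimal IDR rule. For the aligner, the peak caller and the cutoff of the IDR rule the entry is: not given in the sources used here. The deposited signal value was used as given and scaled only in the relative signal. The deposited -log10 q value was read but not used for calls. The summit offset, of another kind, is deposited in bp from the region's start. Only the 4 ce11 lists were used, with the Ensembl release 115 annotation and the RefSeq WBcel235 genome, the same build. There were 0 unused per-sample columns.

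The members, gene lists and motifs were chosen with earlier results of these data known. Named were all members, the nearest gene of each thresholded summit, list genes with a promoter summit, the regions at the 5 kb limit, and the peaks next in rank to the strongest. The genes beside weaker regions, cest-16 and set-1 were named after their values were seen. To match a peak, the replicate region with the closest summit was taken among those sharing 1 bp or more with it. The nearest gene is the protein-coding one with the closest annotated 5′ end. Counting and matching were tested on simulated data. Python 3.11.15 with pandas 2.3.3 and numpy 2.4.6 was used. Alternatives were other windows, other lists, each replicate alone, other scalings and other matching. No test was made, since 1 group gives no contrast, and the background shares stand beside the counts.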

Additional observations from a re-analysis of the deposited data

How the results depend on the processing

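The count of 8 genes with a thresholded summit in the gene window was between 6 and 8 under every alternative, and 8 with either replicate alone. At 2 kb or 1 kb upstream, xol-1 and dpy-21 left it, and with the stronger 2678 peaks sdc-1 did. Their 14 summits became 9 with 2 kb upstream, 9 with 1 kb, 9 in the stronger peaks, 64 in the whole pooled list and 8 when each summit counted only for its nearest 5′ end, and were 14 to 15 with 1 replicate. The 5 genes with a promoter summit became 1 (mix-1) from 300 bp upstream to 100 bp downstream and 3 in the stronger peaks, and were 5 to 6 otherwise. The share of all genes with a summit in the gene window, 32.9%, was 24.2% at 2 kb, 19.9% at 1 kb, 21.5% in the stronger peaks, 56% in the pooled list, 17.9% by nearest 5′ end and 32.9 to 33.5% with 1 replicate. The promoter share, 12.8%, was 9.77% from 300 bp upstream to 100 bp downstream, 16.4% from 1000 bp upstream to 500 bp downstream, 13.9% with the 5′ end of any transcript, 8.46% in the stronger peaks, 28.3% in the pooled list, 10.2% by nearest 5′ end and 12.9 to 13.1% with 1 replicate. The median relative signal of the 8 strongest summits, 2.83, was 13.1 when scaled by the whole replicate list and 2.75 to 2.90 with 1 replicate. The order of the 8 genes was the same under all 5 alternatives. Other scalings and matching changed all genes by nearly the same factor, so only the settings with 1 replicate could readily change the order. No paired analysis was possible because there was 1 group. The depth is unknown, and binding at sdc-3 too weak to be listed cannot be told from none.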
